A study of Homo sapiens with 6 samples.

Results

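The genes examined here encode the protein machinery of pre-mRNA splicing in Hep3B, an established line grown from a human liver cell cancer. Members were taken by symbol from 8 families: SRSF, HNRNP, SF3A with SF3B, PRPF, SNRP, LSM, U2AF and RBM, without pseudogenes. The array platform named 126 such genes, and 109 of the 10598 genes tested in the series were among them. A member was measured when a probe of it had a detection p under 0.01 on at least 3 of the 6 arrays, and its brightest such probe stood for it. The tested cells received sorafenib, an inhibitor of RAF and of receptor tyrosine kinases, for 24 h (3 arrays). The control cells received the solvent DMSO for the same time (3 arrays). The labels give the dose as 3 mM, a unit that could not be checked against these data. All 6 samples are of the same line. Whether the replicates came from separate cultures is not in the labels, and the p-values therefore reflect only the variation among these arrays, possibly technical.

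Splicing removes introns in steps carried out by the spliceosome, which is built from small nuclear ribonucleoproteins (snRNPs). Each snRNP holds a short RNA inside a ring of Sm proteins (SNRP genes) or, for U6, of LSm proteins (LSM genes). SR proteins (SRSF genes) bind exons and mostly favour the use of nearby splice sites, while hnRNPs (HNRNP genes) coat nascent transcripts and often oppose it. U2AF marks the 3' splice site and hands over to SF3A and SF3B of the U2 snRNP, and several PRPF proteins join with the U4/U6 and U5 particles. RBM is a name based on an RNA-binding motif, and its bearers include splicing regulators as well as proteins with other roles. In liver, changes in SR proteins and hnRNPs are known from work on tumours and on metabolic disease.

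Depth was similar across arrays: 16569 to 17380 of 47321 probes were detected on a sorafenib array and 16214 to 16700 on a control array. All 7 liver markers with a named probe (ALB, AFP, APOA1, APOB, TTR, SERPINA1 and FGB) were detected on all 6 arrays. Of 7 markers of blood, endothelial and matrix cells, 6 were detected on no array. CD14, which hepatocytes also express, was detected on all 6 and rose, with log2 values of 9.77, 9.74 and 9.98 with sorafenib and 9.46, 9.36 and 9.37 in control cells (0.43 ± 0.08, SE, limma adjusted p = 0.00823), and its part in the results below was not tested. In bulk RNA a change in the number of cells of a kind and a change of RNA per cell cannot be told apart.

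Most splicing genes differed little between sorafenib and control cells. By limma's test with Benjamini-Hochberg adjustment over all probes, 9 of the 109 rose, 21 fell and 79 did not pass an adjusted p of 0.05. Among all genes tested 36.7% passed, 19.7% higher and 17.0% lower. For the splicing genes the shares were 27.5% in all, 8.26% higher and 19.3% lower. Their median log2 difference (sorafenib minus control) was -0.11, and that of all genes tested was 0. The share that fell lay near that of all genes, and the share that rose lay below it. Among members detected on all 6 arrays the largest difference past the threshold was 1.85-fold (U2AF1L4), and the dimmer RBM24 reached a fitted 1.98-fold. In comparison 295 of 10598 genes (2.78%) passed with at least 2-fold. The split rests in part on the scaling: when arrays were only centred on their medians and not quantile-normalized, 9 members rose and 8 fell (52.9% of the calls higher, against 30% in the quantile-normalized data). Among all genes that centring, on the median over all 47321 probes, gave 69.8% of calls higher, against 53.7%. Cyclic loess gave 9 rises and 24 falls (27.3% of the calls higher, against 53.9% among all genes). Centring on the tested probes alone, added after seeing the data, gave 8 rises and 26 falls (23.5%, against 51.5%).

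On all 3 sorafenib arrays 38 members lay below every control array (34.9% of members, 25.7% of all genes), and 14 lay above every control array (12.8% of members, 27.8% of all genes). All 30 called members were among these, but their calls came from the same arrays, so this adds no separate support. Leaving out 1 array lowered the counts, among all genes as well. Without control replicate 1, for instance, 1497 of 10598 genes were higher and 1212 lower, against 2086 and 1802 with all arrays. For the members the counts were as follows. Falls numbered 11 without sorafenib replicate 1, 12 without sorafenib replicate 2, 9 without control replicate 1 and 12 without control replicate 2. Rises numbered 5 without sorafenib replicate 2. Calls held in each of 19 alternative analyses for 9 members: U2AF1L4 and LSM10 among the rises, and LSM3, RBM12, RBM14, HNRNPC, HNRNPM, SNRPG and SRSF2 among the falls. Of the 19, 1 only added RBMS genes to the members, left the fit unchanged and could not lose a call. The matching share among all called genes was not computed.

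**Figure D1:**
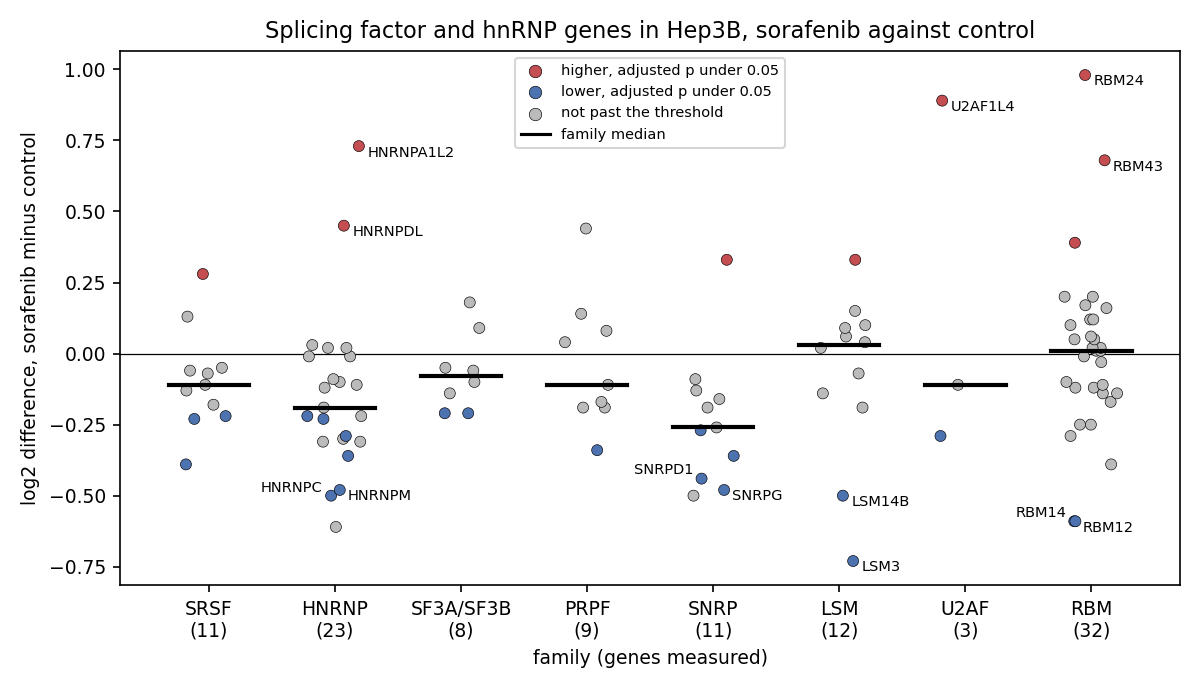
Log2 difference (sorafenib minus control) of the 109 measured splicing genes, a point per gene, by family, with the number measured in brackets. Black bars are family medians, from -0.26 (SNRP) to 0.03 (LSM), and red and blue points passed the threshold higher or lower.

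**Figure D2:**
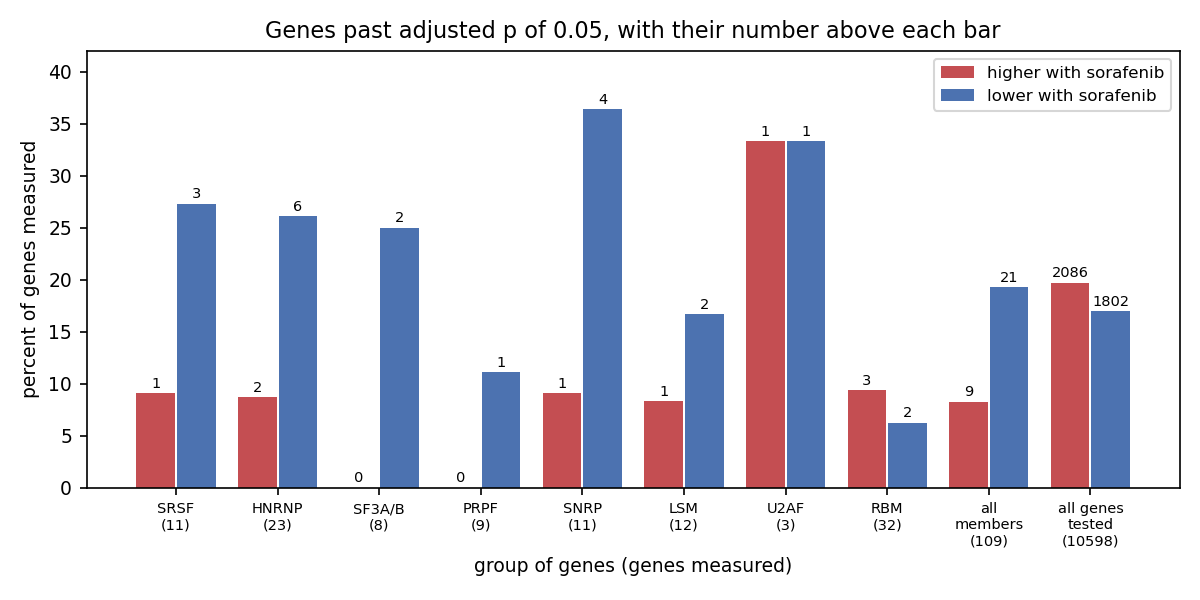
Share of the genes of each family, of all members and of all genes tested that passed an adjusted p of 0.05, higher (red) or lower (blue) with sorafenib, as a percent of genes measured. Of all members 8.26% were higher and 19.3% lower, against 19.7% and 17.0% of all genes tested.

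The SNRP genes encode the Sm ring shared by the U1, U2, U4 and U5 snRNPs and proteins particular to U1 or U2. Of 11 measured, 4 fell, 1 rose and 6 did not pass (median log2 -0.26). In the ring 4 of 7 measured genes fell and 1 rose (ring median -0.36), against 17.0% lower and 19.7% higher among all genes tested. With median centring only SNRPG of the called ring genes kept its call. The 4 genes for U1 and U2 proteins had differences of -0.26 to -0.09 on their brightest probes, without passing. SNRPA1, of U2, had a limma adjusted p of 0.0503, and a second probe of SNRPC, of U1, was called lower (-0.30 ± 0.08, adjusted p = 0.0295). SNRPG, the gene of ring protein SmG, had normalized log2 values of 13.92, 13.88 and 14.00 on the sorafenib arrays and 14.41, 14.51 and 14.32 on the control arrays. The groups did not overlap, and SNRPG fell by 0.48 on the log2 scale (SE 0.08, 1.40-fold, limma adjusted p = 0.00364). SNRPD1, for SmD1, had values of 8.20, 8.15 and 8.08 with sorafenib and 8.45, 8.75 and 8.54 in control cells. It differed by -0.44 ± 0.09 (SE, limma adjusted p = 0.0108), again with no overlap, but did not pass with median centring (0.085). SNRPD2, for SmD2, differed by -0.36 ± 0.09 (limma adjusted p = 0.0197), but did not pass without sorafenib replicate 1 or 2 or control replicate 1 or 2 (adjusted p up to 0.0693) or with median centring (0.0524).

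The ring position of SmB can be taken by products of either SNRPB or SNRPN. SNRPN lies in an imprinted region, is best known from brain and was the only ring gene called higher. SNRPN had values of 13.34, 13.42 and 13.60 on the sorafenib arrays and 13.15, 13.07 and 13.15 on the control arrays, a rise of 0.33 ± 0.08 (SE, limma adjusted p = 0.0223). All 3 of its tested probes passed, with differences of 0.33, 0.43 and 0.47. The call on the brightest probe was lost without sorafenib replicate 2, control replicate 1 or control replicate 2 (adjusted p up to 0.0699) and with median centring (0.0864). SNRPB differed by -0.16 on its brightest probe (95% interval -0.32 to 0.00, limma adjusted p = 0.117) and passed on its other probe, at -0.22. The difference between SNRPN and SNRPB was not tested. SNRPD3, for SmD3, had a wide spread with sorafenib: 8.44, 8.69 and 7.56, against 8.82, 8.84 and 8.54 in control cells. Its difference was -0.50 ± 0.27 (limma adjusted p = 0.200), and -0.17 without sorafenib replicate 3. Replicate 3 held the lowest SNRPD3 value in both groups. SNRPF, for SmF, differed by -0.27 ± 0.07 (limma adjusted p = 0.0236), with -0.24 on its other probe (adjusted p = 0.0201). On the brightest probe, of the 6 fits without 1 array only that without control replicate 2 kept the call. SNRPE, for SmE, was detected on none of the 6 arrays by its 2 probes. Whether these probes read the transcript was not tested, so the values do not show that SNRPE is silent.

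Promoter sequence is shown for each called gene of the Sm ring or of SF3B with a usable RefSeq window on GRCh38.p14, and for U2AF1L4, the rise with the lowest adjusted p. SNRPD2, SNRPF, SF3B5 and SF3B6 were the called genes with such a window, all called lower. A window was used where its start was the outer end of the gene in the annotation, and it runs 5' to 3' from 250 bases before to 50 bases after that start. Capitals mark the ETS core CCGGAAG on either strand, which appears as CTTCCGG when the match lies on the opposite strand.
SNRPD2 promoter, chr19:45692267-45692566, minus strand: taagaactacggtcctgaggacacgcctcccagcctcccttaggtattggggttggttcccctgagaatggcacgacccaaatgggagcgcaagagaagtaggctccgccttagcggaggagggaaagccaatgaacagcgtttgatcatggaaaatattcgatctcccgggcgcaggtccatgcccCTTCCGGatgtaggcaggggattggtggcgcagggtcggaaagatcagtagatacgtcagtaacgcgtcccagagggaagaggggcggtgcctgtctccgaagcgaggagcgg
SNRPF promoter, chr12:95858702-95859001, plus strand: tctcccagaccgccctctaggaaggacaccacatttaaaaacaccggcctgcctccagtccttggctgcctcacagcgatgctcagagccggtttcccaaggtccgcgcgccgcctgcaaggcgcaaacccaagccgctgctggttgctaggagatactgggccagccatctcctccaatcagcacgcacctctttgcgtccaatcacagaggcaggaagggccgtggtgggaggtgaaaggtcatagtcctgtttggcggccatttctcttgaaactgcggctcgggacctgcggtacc
SF3B5 promoter, chr6:144095524-144095823, minus strand: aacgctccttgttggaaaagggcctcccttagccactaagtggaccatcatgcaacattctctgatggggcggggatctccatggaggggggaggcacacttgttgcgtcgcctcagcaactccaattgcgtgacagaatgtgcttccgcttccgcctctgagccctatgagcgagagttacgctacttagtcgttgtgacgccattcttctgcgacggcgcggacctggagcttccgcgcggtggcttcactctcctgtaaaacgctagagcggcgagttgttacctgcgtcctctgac
SF3B6 promoter, chr2:24076277-24076576, minus strand: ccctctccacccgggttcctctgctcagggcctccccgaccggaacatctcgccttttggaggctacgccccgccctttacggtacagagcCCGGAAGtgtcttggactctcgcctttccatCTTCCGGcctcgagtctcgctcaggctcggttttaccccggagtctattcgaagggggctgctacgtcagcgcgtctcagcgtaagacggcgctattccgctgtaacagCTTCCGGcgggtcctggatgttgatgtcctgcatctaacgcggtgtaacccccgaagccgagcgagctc
U2AF1L4 promoter, chr19:35745369-35745668, minus strand: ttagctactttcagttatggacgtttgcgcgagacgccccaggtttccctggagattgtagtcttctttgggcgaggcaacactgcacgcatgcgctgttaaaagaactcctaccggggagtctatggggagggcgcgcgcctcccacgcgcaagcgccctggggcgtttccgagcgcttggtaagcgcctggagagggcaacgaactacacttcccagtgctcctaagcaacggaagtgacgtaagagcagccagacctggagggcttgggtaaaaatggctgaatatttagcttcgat
The core begins 63 bases before the start in SNRPD2 and 159, 128 and 19 before it in SF3B6, and these letters are not in the SNRPF, SF3B5 and U2AF1L4 windows. A window was found for 90 of the 109 members, and 26 of them (28.9%) held the core, against 20.4% of 7571 windows of the genes tested and 10.7% of 24882 windows in all. By call, 4 of 17 windows of members that fell held it (23.5%), and 22 of 67 of members that did not pass (32.8%). Of 6 windows of members that rose, no window held it. With the first window listed for a gene, whether or not at its outer end, 28 of 96 members held it (29.2%, against 19.9% and 10.7%). The E-box CACGTG was found in 10 of 90 (11.1%, against 10.9% for genes tested and 7.40% for all), the NRF1 palindrome in 3 of 90 (3.33%, against 2.62% and 1.38%) and the ATF4 composite TGATGNAA in 1 of 90 (1.11%, against 1.62% and 3.70%). Both strands were searched for each motif.

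The LSM genes divide between the nuclear ring on U6 and proteins that act elsewhere. Of 12 measured, 2 fell, 1 rose and 9 did not pass (median 0.03), against 17.0% lower and 19.7% higher among all genes tested. LSM3, a subunit both of the nuclear ring and of the cytoplasmic ring that starts mRNA decay, had values of 11.84, 11.78 and 11.89 on the sorafenib arrays, against 12.59, 12.58 and 12.52 on the control arrays. The groups stood well apart, and LSM3 fell 1.66-fold (log2 -0.73 ± 0.07, SE, limma adjusted p = 0.000365), with -0.78 on its other probe. This was the largest fall among the 109 genes. The 6 other genes of the U6 ring lay between -0.14 and 0.15 and did not pass. LSM2, next to LSM3 in the ring, differed by 0.06 (95% interval -0.20 to 0.31), and its sign turned without control replicate 3 (-0.06). LSM10 belongs to the U7 snRNP, which trims histone mRNAs and takes no part in splicing. It rose by 0.33 ± 0.08 (10.12, 10.04 and 10.15 with sorafenib, 9.85, 9.67 and 9.81 in control cells, limma adjusted p = 0.0145). LSM14B, related to the P-body protein LSM14A, fell by 0.50 on the log2 scale (SE 0.12) but was detected on 1 of 3 sorafenib arrays and 3 of 3 control arrays. It met the detection filter through the control arrays, where it was high. Its call was lost without sorafenib replicate 2 or 3 or control replicate 1 or 2 (adjusted p up to 0.0656).

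Among the HNRNP genes 6 of 23 fell, 2 rose and 15 did not pass (median -0.19), against 17.0% lower and 19.7% higher among all genes. HNRNPM, a regulator of exon choice, had values of 13.62, 13.58 and 13.65 with sorafenib and 14.15, 14.12 and 14.02 in control cells. Its 3 brighter probes fell, with log2 differences of -0.48, -0.51 and -0.67 (limma adjusted p from 0.000388 to 0.00221). A dim HNRNPM probe was detected on 3 of 3 control arrays and no sorafenib array, so it passed the detection filter through the control arrays alone. Its means were 5.40 with sorafenib and 6.38 in control cells (limma adjusted p = 0.0167). Set against the dimmest detected signal, the means gave a fall of at least 1.46-fold. On control replicate 3 the probe, at 5.87, was itself at that signal. Because of how it was selected, this probe adds no separate support. HNRNPC, which binds uridine tracts and keeps U2AF away from cryptic exons, had 10.53, 10.47 and 10.37, against 11.02, 10.94 and 10.89. It fell 1.41-fold on this probe (log2 -0.50 ± 0.07, limma adjusted p = 0.00281), while a dimmer HNRNPC probe differed by 0.03 ± 0.10 without passing. HNRNPA1, a repressor of exon inclusion, had 8.45, 8.53 and 8.51 with sorafenib and 8.76, 8.93 and 8.88 in control cells. It differed by -0.36 ± 0.07 (limma adjusted p = 0.00892), without passing under median centring (adjusted p = 0.104). On their brightest probes HNRNPU differed by -0.29 ± 0.08, HNRNPAB by -0.23 ± 0.06 and HNRNPH2 by -0.22 ± 0.06 (limma adjusted p from 0.0276 to 0.0326). The other 2 HNRNPAB probes were also called lower, at -0.32 (adjusted p = 0.011) and -0.42 (adjusted p = 0.00346). On the brightest probes HNRNPAB and HNRNPH2 lost their calls whichever array was dropped, and HNRNPU did unless that array was sorafenib replicate 1.

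HNRNPDL, a regulator of splicing close in sequence to HNRNPD, rose by 0.45 ± 0.11 on its brightest probe (10.41, 10.33 and 10.20 with sorafenib, 10.02, 9.93 and 9.66 in control cells, limma adjusted p = 0.0201). Its other probe differed by -0.01 ± 0.09, and the call was lost without sorafenib replicate 1 or 2 (adjusted p up to 0.0674). HNRNPA1L2, an intronless relative of HNRNPA1, rose 1.66-fold (6.68, 6.50 and 6.54, against 5.72, 5.94 and 5.89, limma adjusted p = 0.00115), but was detected on 1 of 3 control arrays. It met the detection filter through the sorafenib arrays, where it was high. Probes of HNRNPA1 and HNRNPA1L2 may bind each other's transcripts, as may those of HNRNPC and its like-genes, and these values are uncertain. HNRNPK, which binds cytidine-rich sequence, differed by -0.11 on its brightest probe (95% interval -0.26 to 0.04, limma adjusted p = 0.229), and the dimmest of its 4 probes passed at -0.63. HNRNPL had values of 8.57, 8.77 and 7.53 with sorafenib and 9.07, 8.91 and 8.72 in control cells, a difference of -0.61 ± 0.31 (limma adjusted p = 0.165). Without sorafenib replicate 3, which held the lowest value, it was -0.23, and control replicate 3 held the lowest control value.

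**Figure D3:**
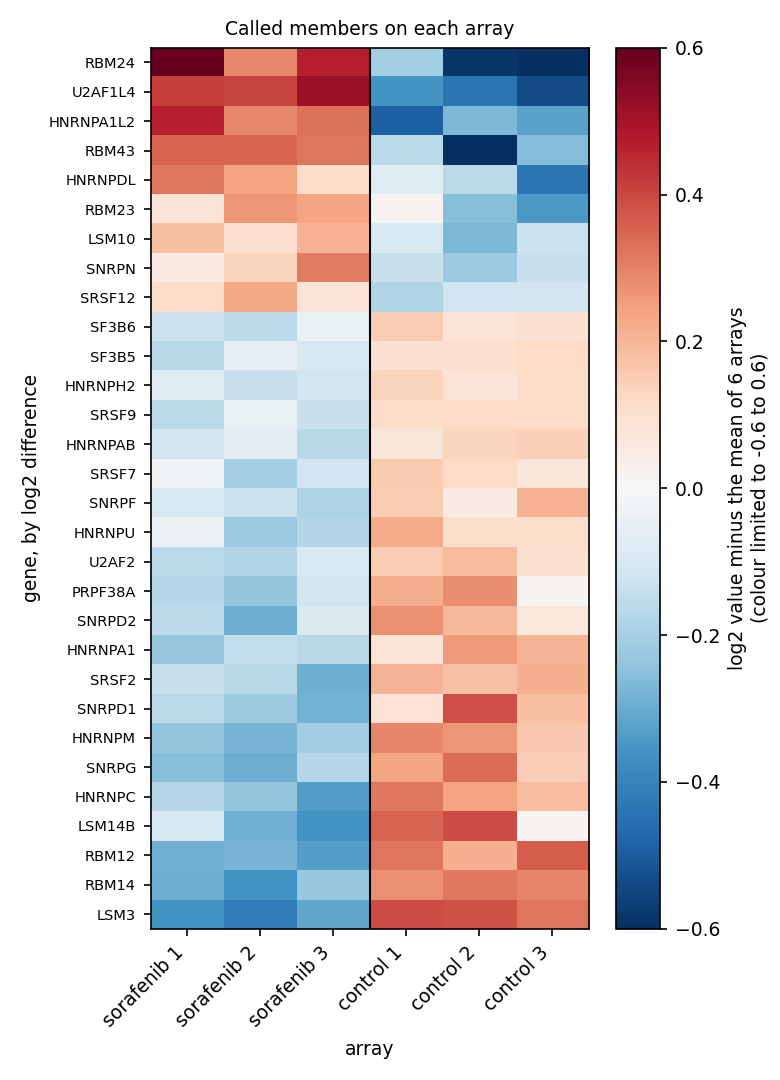
Normalized log2 values of the 30 called members on each array, as differences from the gene's mean over 6 arrays (colour), with sorafenib arrays left of the line and control arrays right of it. In all 30 genes the 3 sorafenib arrays lay on the opposite side of the control arrays with no overlap. The genes were selected by their calls on these same arrays, so this adds no separate support.

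Of 11 SRSF genes, which encode the SR proteins, 3 fell, 1 rose and 7 did not pass (median -0.11). The shares among all genes were 17.0% lower and 19.7% higher. SRSF2, the SR protein SC35 that marks nuclear speckles, had 13.46, 13.43 and 13.30 on the sorafenib arrays and 13.80, 13.77 and 13.81 on the control arrays. It fell 1.31-fold (log2 -0.39 ± 0.07, SE, limma adjusted p = 0.00577). SRSF12, which can oppose other SR proteins, differed by 0.28 ± 0.07 (8.29, 8.41 and 8.26 with sorafenib, against a control mean of 8.04 ± 0.04, SD, n = 3, limma adjusted p = 0.0218), and SRSF7 by -0.23 ± 0.07 (adjusted p = 0.0496). SRSF7 lost its call whichever array was dropped (adjusted p 0.0528 to 0.149). SRSF12 lost it without sorafenib replicate 1 or 2 or control replicate 1 or 2 (adjusted p up to 0.0775). SRSF9, a small SR protein, differed by -0.22 ± 0.06 (limma adjusted p = 0.0342), a call lost unless the array dropped was sorafenib replicate 2. SRSF1, the founding SR protein, differed by -0.05 (95% interval -0.23 to 0.14), and SRSF3 by -0.11 (-0.28 to 0.07). Just outside the detection limit, SRSF11 was detected on 2 arrays (means of 5.68 with sorafenib and 5.89 in control cells). Just inside it, LSM6 was detected on 3 (5.34, 6.06 and 6.30 against 5.73, 5.80 and 5.90).

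U2AF2 encodes the larger U2AF subunit, which binds the pyrimidine tract, and U2AF1 the smaller, which contacts the AG of the 3' splice site. U2AF1L4 encodes a relative of U2AF1. U2AF1L4 had values of 9.48, 9.47 and 9.58 with sorafenib and 8.71, 8.63 and 8.53 in control cells. It rose 1.85-fold (log2 0.89 ± 0.07, SE, limma adjusted p = 0.000289), with 0.86 ± 0.12 on its other probe, and it is the promoter printed last above. U2AF2 differed by -0.29 ± 0.07 (12.17, 12.15 and 12.24 against 12.48, 12.52 and 12.42, limma adjusted p = 0.0146). Its call was lost without sorafenib replicate 1 or 2 or control replicate 1 (adjusted p up to 0.0534) and with median centring (0.0841). U2AF1 differed by -0.11 (95% interval -0.32 to 0.10) and did not pass.

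The SF3A and SF3B genes, which encode the U2 proteins that clamp the branch site, had 2 of 8 genes lower and 6 that did not pass (median -0.08). Among all genes 17.0% were lower and 19.7% higher. SF3B6, whose product touches the branch adenosine, had 11.75, 11.72 and 11.84 with sorafenib and 12.03, 11.96 and 11.97 in control cells, a difference of -0.21 ± 0.07 (limma adjusted p = 0.0459). SF3B5, a small subunit, differed by -0.21 ± 0.06 (adjusted p = 0.0395). SF3B5 lost its call whichever array was dropped (adjusted p up to 0.129), and SF3B6 did unless that array was sorafenib replicate 3. SF3B1, the subunit often mutated in blood cancers, differed by -0.06 on its brightest probe (95% interval -0.24 to 0.13), and SF3A3 by 0.18 (0.00 to 0.35), neither past the threshold. A dimmer SF3B1 probe, detected on 2 of 3 sorafenib arrays, differed by -0.68 (-1.43 to 0.07, limma adjusted p = 0.143). SF3A1 was detected on none of the 6 arrays by its 1 probe. Whether that probe reads the transcript was not tested, so the values do not show that SF3A1 is silent.

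Of 9 PRPF genes 1 fell and 8 did not pass (median -0.11), against 17.0% lower and 19.7% higher among all genes. PRPF38A, needed to activate the assembled spliceosome, had 8.75, 8.69 and 8.81 with sorafenib and 9.14, 9.20 and 8.93 in control cells, a difference of -0.34 ± 0.09 (limma adjusted p = 0.0262). Its second probe differed by 0.11 without passing, and the call was lost without sorafenib replicate 1 or 2 or control replicate 1 or 2 (adjusted p up to 0.0846). PRPF8, the scaffold at the catalytic centre, differed by 0.14 (95% interval -0.01 to 0.29, limma adjusted p = 0.138), with every sorafenib array above the control arrays. PRPF6, which bridges U5 and U4/U6, differed by 0.44 ± 0.22 (adjusted p = 0.170) and PRPF38B by -0.19 (adjusted p = 0.295). For PRPF6 the difference was 0.17 without control replicate 2.

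The RBM genes had 3 of 32 higher, 2 lower and 27 that did not pass (15.6% called, against 36.7% of all genes, median 0.01). Of 18 measured RBM genes listed as having a role in splicing, 2 rose and 1 fell, and of 14 others 1 rose and 1 fell. RBM14, a coactivator found in paraspeckles, had values of 11.99, 11.92 and 12.06 with sorafenib and 12.56, 12.60 and 12.58 in control cells. It fell 1.50-fold (log2 -0.59 ± 0.07, SE, limma adjusted p = 0.000946). RBM12, a nuclear RNA-binding protein gene, had 10.09, 10.10 and 10.05, against 10.70, 10.59 and 10.74, and fell 1.51-fold (limma adjusted p = 0.000972). Its other probes differed by -0.30 (past the threshold) and -0.22 (not past).

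RBM24, known as a regulator of splicing in muscle, had the largest fitted rise but was dim, detected on 3 of 3 sorafenib arrays and 1 of 3 control arrays. Its values were 7.23, 6.80 and 6.98 with sorafenib and 6.31, 5.93 and 5.82 in control cells. It rose 1.98-fold by fitted values (log2 0.98 ± 0.16, SE, limma adjusted p = 0.00358). RBM43, detected on 3 of 3 sorafenib and 2 of 3 control arrays, rose 1.60-fold (6.68, 6.68 and 6.65 against 6.17, 5.73 and 6.07, limma adjusted p = 0.00497). The dimmest detected signal on an array lay between 5.75 and 5.96, so folds of these dim genes may be too small. RBM24, RBM43, HNRNPA1L2 and LSM14B met the detection filter through the arrays of the group where they were high. That selection can make differences too large, so their calls add no separate support. They were not tested when detection on all 6 arrays was required. RBM23, a relative of the splicing coactivator RBM39, rose by 0.39 ± 0.11 on its brightest probe (adjusted p = 0.0311) and by 1.00 ± 0.23 on the other. That other probe was detected on 2 of 3 control arrays, with control values of 5.46, 6.30 and 6.38. The value of 5.46 lay below the dimmest detected signal of control replicate 1, 5.89. The call on the brightest probe was lost without sorafenib replicate 2 or 3 or control replicate 2 or 3 (adjusted p up to 0.0942).

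Over the 159 tested probes of members, 15 were called higher (9.43%) and 34 lower (21.4%), against 17.9% and 16.2% of all 16909 probes tested, 34.2% of which passed in either direction. Several tested probes were available for 36 members. In 8 of these genes every probe passed in the same direction, in 15 none passed, in 13 some passed and none had probes called in opposite directions. The matching shares over all genes with several probes were not computed, so these counts are a description only. The 8 include HNRNPM, whose dim probe was selected through the control arrays but whose brighter probes also passed. They also include RBM23, with a probe detected on 2 of 3 control arrays. In some members the brightest probe did not pass but another did. That probe was lower for SNRPB, SNRPC, HNRNPK and RBM4. It was higher for HNRNPH3 (0.26, limma adjusted p = 0.0223) and RBM47 (0.41, adjusted p = 0.0168). RBM4, a regulator of exon choice, had probes on both sides of 0. Its brightest probe differed by 0.17 ± 0.09 without passing, and another RBM4 probe fell by 0.39 on the log2 scale (SE 0.08, limma adjusted p = 0.0116). Which transcript forms each probe reads was not examined. RBM4, HNRNPH3 and RBM47 were chosen after their values were seen.

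**Figure D4:**
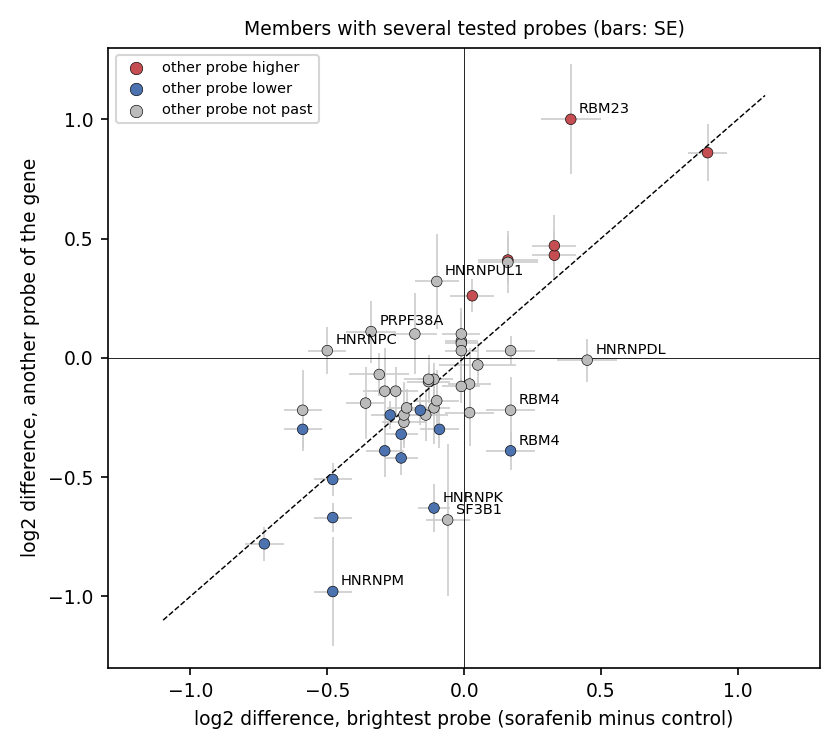
Log2 difference (sorafenib minus control) on the brightest probe (horizontal) and on each other tested probe (vertical) of the 36 members with several probes, with SE bars. The dashed line marks equal values, and HNRNPC, HNRNPDL, RBM4, RBM23 and SF3B1 are among the genes with a probe away from it.

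Other spliceosome and splicing genes were taken from a fixed list of 129, of which 115 were measured. Of these 8 rose, 25 fell and 82 did not pass (28.7% called, median -0.14). With median centring 12 fell, and without sorafenib replicate 1 the number was 15. Rises numbered 4 or 5 without any of the sorafenib arrays or without control replicate 1. By list, 4 of 7 U2 and branch-site genes fell, 4 of 8 snRNP assembly genes, 7 of 21 genes of the minor spliceosome, U1, U5 and the tri-snRNP (2 rose), 6 of 34 other regulators (3 rose), 3 of 23 SR-related, SR kinase and exon junction genes and 1 of 22 core and helicase genes (3 rose), against 17.0% lower and 19.7% higher among all genes. DDX46, a helicase of the U2 snRNP, had 8.62, 8.64 and 8.73 with sorafenib and 9.47, 9.53 and 9.33 in control cells, and fell 1.72-fold (limma adjusted p = 0.000568). The paraspeckle gene PSPC1 differed by -0.65 ± 0.10, QKI by -0.61 ± 0.17, the snRNP assembly gene GEMIN6 by -0.57 ± 0.09 and FUBP1 by -0.56 ± 0.08, all past the threshold (limma adjusted p at most 0.0284). CIRBP, a cold-inducible RNA-binding protein, rose 1.67-fold (12.75, 12.81 and 12.88 against 12.20, 11.88 and 12.13, limma adjusted p = 0.00169). SNRNP200, the U5 helicase, rose by 0.68 ± 0.10, the epithelial splicing regulator ESRP1 by 0.57 ± 0.10, KHDRBS3 by 0.45 ± 0.09 and ZMAT5, of the minor spliceosome, by 0.38 ± 0.11 (adjusted p at most 0.0368). Of these 10 genes 8 kept their calls whichever array was dropped. QKI did not pass without sorafenib replicate 1 or 2 or control replicate 1 or 3 (adjusted p up to 0.0899), and ZMAT5 lost its call unless the array dropped was control replicate 3.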

How the data were processed

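RNA was treated with DNase I, labelled as biotinylated cRNA (TargetAmp-Nano kit) and read on Illumina BeadChips, per the labels' protocols. The authors deposited a non-normalized intensity and a detection p-value per probe and array, per the file headers, and a table of log2 values. The deposited log2 values equalled the quantile-normalized log2 intensities within 5.0e-07 (column medians 6.79), so they lack background correction and served as an alternative. The sources used here do not give the slide or the scanner software.

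Intensities were background-corrected and quantile-normalized with neqc (offset 16, limma 3.58.1, R 4.3.3). The 16909 probes with detection p under 0.01 on at least 3 arrays went into limma's lmFit and eBayes as sorafenib minus control, two-sided and without a block. Benjamini-Hochberg adjustment ran over these probes, threshold 0.05. Errors are moderated SE, n = 3 arrays per group, which limits the precision. Of the probes 30112 had 1 symbol in the platform annotation, 8 had several and 17201 had none. RBMS, RBMY, SNRNP and LSMEM genes were left out of the families.

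The members and lists were chosen with earlier results of these data known. Members were named by rule: up to 12 largest rises and falls without overlap, the 3 largest differences of each family and 12 fixed genes; of the other splicing genes, the 5 largest rises and falls. In simulated data for sorafenib against control (16909 probes) 50 probes were changed at each size. Calls were made for 2% of changed probes at a size of 0.25 log2, for 50% at 0.5, for 80% at 1 and for 96% at 2, with 9 false calls. Far fewer probes were changed there than passed in the data (34.2%), which alters the adjustment, so these rates need not hold for the data. The alternatives tried changed the background correction, normalization, detection filter, block, variance model, weights, probe rule, RBMS membership and the arrays included.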

Additional observations from a re-analysis of the deposited data

How the results depend on the processing

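In the main analysis 9 members rose and 21 fell. Without the filter on dim probes 5 of 126 members rose and 11 fell, against 1599 and 1262 of 20045 genes. With detection required on all 6 arrays 6 of 103 members rose and 22 fell, against 1999 and 1858 of 9769 genes. Median centring gave 8 falls among members and 893 among 10598 genes. In the 6 fits that left out 1 array 5 to 8 members rose and 9 to 15 fell, against 1497 to 1732 and 1212 to 1632 of 10598 genes. The genes called per family moved as follows. With median centring the number was 2 for SRSF (main 4), 4 for HNRNP (8), 0 for SF3A with SF3B (2), 1 for SNRP (5) and 1 for U2AF (2). Without the filter it was 1 for SRSF, 4 for HNRNP, 0 for SF3A with SF3B, 0 for PRPF (1) and 2 for SNRP. With detection p under 0.05 it was 2 for SRSF and 0 for SF3A with SF3B. With the trend and robust variance model it was 4 for SF3A with SF3B, 2 for PRPF and 8 for SNRP, and with array weights 8 for SNRP. PRPF had 2 with the deposited log2 values, 2 with centring on the tested probes (added after seeing the data) and 0 when probes of a gene were summarised by their median. In the fits without 1 array it was 1 to 2 for SRSF, 5 to 6 for HNRNP, 0 to 1 for SF3A with SF3B, 0 to 1 for PRPF, 2 to 5 for SNRP and 1 to 2 for U2AF. The other splicing genes had 5 rises with detection p under 0.05, 4 without the filter and 4 to 7 without 1 array (main 8), and 12 falls with median centring and 15 to 25 without 1 array (main 25). The members' median of -0.11 was -0.09 with the deposited log2 values, -0.10 with an offset of 50, -0.06 with median centring, -0.10 with cyclic loess, -0.10 without the filter, -0.15 with centring on the tested probes and -0.11 to -0.09 without 1 array. Of 908 values of named genes under the alternatives, 2 turned sign, both of LSM2, which had not passed (0.06): -0.06 without control replicate 3, the lower end of its range of -0.06 to 0.13 without 1 array, and -0.05 with centring on the tested probes. A further 88 no longer passed and 6 newly passed, and the setting that added RBMS genes could change none of the 908. Apart from fewer arrays or more probes tested, the cause was not tested.

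The replicate numbers did not pair the arrays throughout by the rule used. Deviations of same-numbered arrays correlated at 0.0892, 0.102 and 0.252 across probes. Sorafenib replicate 1 and control replicate 1 each correlated best with an array numbered 2, by a small margin (0.099 and 0.0942, against 0.0892). The arrays numbered 3 correlated at 0.252, and each gave -0.174 to -0.136 with arrays of other numbers in the other group. Deviations from a group mean cancel within the group. A positive value for a pair therefore forces negative values on balance with the other arrays, which are no separate observation. Whether the arrays numbered 3 share a source of variation was not tested. With a replicate block there were 8 rises and 15 falls, against 1937 and 1697 among 10598 genes, with 2 called for SRSF, 0 for SF3A with SF3B and 0 for PRPF. Brightness limits the dim members, and 6 of 109 were not detected on all 6 arrays.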

Other observations

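The RBMS genes share 3 letters of their symbol with the RBM family but form a separate group of proteins that bind single-stranded nucleic acid, and they were chosen here after their values were seen. RBMS2 had values of 7.71, 7.80 and 7.79 with sorafenib and 8.67, 8.73 and 8.86 in control cells. It fell by 0.99 on the log2 scale (SE 0.08, limma adjusted p = 0.000212), a larger difference than any of the 109 members that fell. RBMS1 had 9.51, 9.71 and 9.49 with sorafenib and 9.88, 10.01 and 10.03 in control cells, a difference of -0.40 ± 0.09 (limma adjusted p = 0.0117).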
